A study of Mus musculus with 11 samples.

Results

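The 9 genes of DNA methylation and its removal were followed across the order in which 2 oncogenes were introduced into mouse bone marrow: Dnmt1, Dnmt3a, Dnmt3b, Uhrf1, Tet1, Tet2, Tet3, Idh1 and Idh2. They were taken by gene symbol, and all 9 matched 1 Ensembl identifier each among the 51912 genes of the count table. All 9 were among the 15703 genes that passed the filter on low counts. Lineage-negative C57BL/6 bone marrow was transduced with a constitutive vector tagged with GFP and a Cre-inducible vector tagged with red fluorescence, and double-positive lineage-negative cells were kept for 48 hours with 4-hydroxytamoxifen, which turns on the second vector. CSF3R-only cells (n = 4, the controls) carried constitutive CSF3R T618I and an empty inducible vector, so that every group carried this activating receptor mutation. CSF3R-first cells (n = 3) carried constitutive CSF3R T618I and inducible CEBPA V314VW, a C-terminal mutation of the myeloid transcription factor. CEBPA-first cells (n = 4) carried the same alleles in the opposite vectors. The paper's results pair the inducible vector with cells of Rosa26 ERT2-Cre mice, which carry the tamoxifen-activated recombinase in all tissues. Its methods list that strain and name C57BL/6 marrow for the sequencing. The methods describe the marrow donors as healthy, syngeneic and young adult, and the mice of the study as female. Both oncogenes come from viral vectors, the number of donors in a sample is not given in the sources used here, and p-values measure the spread between samples labelled as replicates. CEBPA-first against CSF3R-first asks whether the order of the same 2 alleles changes transcription. Order there cannot be told apart from the vector carrying each allele or from how long it was expressed. CEBPA-first against CSF3R-only differs both in mutant CEBPA and in when, and from which vector, CSF3R T618I was expressed.

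DNA methyltransferases place methyl groups on cytosine in CpG dinucleotides. DNMT1, guided by UHRF1 to newly replicated hemimethylated DNA, copies the pattern to the daughter strand, whereas DNMT3A and DNMT3B set it on unmethylated DNA. The TET dioxygenases oxidize the methyl group with 2-oxoglutarate as cosubstrate, and the isocitrate dehydrogenases IDH1 (cytosol) and IDH2 (mitochondria) make 2-oxoglutarate. In human myeloid leukemia DNMT3A, TET2, IDH1 and IDH2 are recurrently mutated, and mutant IDH makes 2-hydroxyglutarate, which inhibits TET enzymes. Methylation itself was not measured here.

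Total counts were 47905747 to 72268346 per library. Replicates of a group differed beyond counting noise, and CSF3R-first replicate A stood apart from replicates B and C (chi-square per degree of freedom of 110 and 82.2, against 24.4 between B and C), so calls that change without it are given both ways. The leukocyte gene Ptprc was present at 1130 ± 125, 838 ± 141 and 585 ± 83.5 CPM (counts scaled to library size by TMM, SD) in the groups ordered as CSF3R-only, CSF3R-first, CEBPA-first. Of the 7 T and NK cell genes listed, Cd3e and Cd8a had no count in any sample, while Nkg7 was at 109 ± 24.7, 57.6 ± 14.7 and 48.8 ± 6.99 CPM and Lck at 1.75 ± 0.395, 2.23 ± 0.392 and 4.32 ± 0.644 CPM. The 7 summed to 77.8 to 136 CPM, 46.0 to 76.0 CPM and 47.7 to 64.5 CPM. The 6 B cell genes summed to 3.59 to 4.51, 3.26 to 4.23 and 5.81 to 6.81 CPM, mostly Cd79b. Mouse Csf3r was at 846 ± 94.9, 516 ± 118 and 154 ± 16.1 CPM and mouse Cebpa at 87.2 ± 6.98, 131 ± 10.4 and 167 ± 6.12 CPM in the same order. The study assayed the vector genes as human sequences, so counts of the mouse genes do not check the labels.

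Promoter windows are shown for the maintenance pair, Dnmt1 and Uhrf1, in which the letters described below were found. The sequences are RefSeq windows (GRCm38.p6) from 250 bases before to 50 bases after an annotated start, and all 9 genes had at least 1 window, 15 in all. Capitals mark exact matches, on either strand, to TTTCGCGC, TTTGGCGC or TTTCCCGC, letters of the E2F type, of which 1.84% of 32851 mouse windows of this length hold at least 1.
Uhrf1 (chr17:56304063-56304362, plus strand): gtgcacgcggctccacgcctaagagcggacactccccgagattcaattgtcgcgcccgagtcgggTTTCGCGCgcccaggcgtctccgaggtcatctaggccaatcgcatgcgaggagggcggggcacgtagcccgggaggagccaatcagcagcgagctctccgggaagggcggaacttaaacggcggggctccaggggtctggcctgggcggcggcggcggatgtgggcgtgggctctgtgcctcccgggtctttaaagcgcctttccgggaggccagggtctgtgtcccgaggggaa
Dnmt1 (chr9:20952574-20952873, minus strand): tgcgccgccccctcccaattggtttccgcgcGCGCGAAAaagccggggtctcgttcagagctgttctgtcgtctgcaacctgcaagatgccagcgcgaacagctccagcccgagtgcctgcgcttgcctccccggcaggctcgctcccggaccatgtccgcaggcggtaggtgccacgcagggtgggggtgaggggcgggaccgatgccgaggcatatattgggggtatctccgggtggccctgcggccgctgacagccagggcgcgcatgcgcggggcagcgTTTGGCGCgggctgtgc

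One of 2 Uhrf1 windows held a match, at -185 from the start. In Dnmt1, 1 of 3 windows held 2 matches, at -219 (on the opposite strand) and at 34. No window of the other 7 genes held these letters, and none of the 15 windows held TTGCNNCAA, the C/EBP type (2.08% of all windows), or TTCNNNGAA, the STAT type (8.3% of all windows). Only windows with a match are printed. Idh2 and Tet1, whose windows held no match, were also higher in both 2-oncogene groups, as Dnmt1 and Uhrf1 were. A match describes the letters only, and a role of E2F was not tested.

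The maintenance genes were lowest in CSF3R-only, intermediate in CSF3R-first and highest in CEBPA-first. Dnmt1 (ENSMUSG00000004099, chr9:20907209-20959888 of GRCm38, minus strand, 39 exon blocks) was at 293, 301, 278 and 294 CPM in CSF3R-only replicates A to D. It was at 373, 436 and 396 CPM in CSF3R-first and at 466, 535, 448 and 467 CPM in CEBPA-first. No values of one group overlapped those of another. CEBPA-first exceeded CSF3R-only 1.64-fold (log2 0.72, SE 0.07, edgeR adjusted p = 1.4e-06) and CSF3R-first exceeded it 1.38-fold (0.46, SE 0.08, edgeR adjusted p = 0.00062). CEBPA-first exceeded CSF3R-first by 0.25 on the log2 scale (SE 0.08, edgeR adjusted p = 0.016), a call that was lost without CSF3R-first replicate A (0.21, adjusted p = 0.059) or C (0.24, adjusted p = 0.059).

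Uhrf1 (ENSMUSG00000001228, chr17:56303321-56323486, plus strand, 18 exon blocks), which recruits DNMT1, followed the same order. Its levels were 124, 161, 151 and 145 CPM in CSF3R-only. They were 222, 267 and 229 CPM in CSF3R-first and 299, 344, 289 and 284 CPM in CEBPA-first. Again the 3 groups did not overlap. Uhrf1 was 2.09-fold higher in CEBPA-first (log2 1.06, SE 0.09, edgeR adjusted p = 4.6e-07) and 1.65-fold higher in CSF3R-first (0.72, SE 0.10, edgeR adjusted p = 0.0002) than in CSF3R-only. The step from CSF3R-first to CEBPA-first was 0.34 (SE 0.10, edgeR adjusted p = 0.013; without CSF3R-first replicate C 0.31, adjusted p = 0.054). A processed pseudogene, Gm5648, is at least 97% identical to 44.3% of the longest Uhrf1 transcript, but held 0 to 37 counts per library against 5737 to 22248 for Uhrf1.

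**Figure D1:**
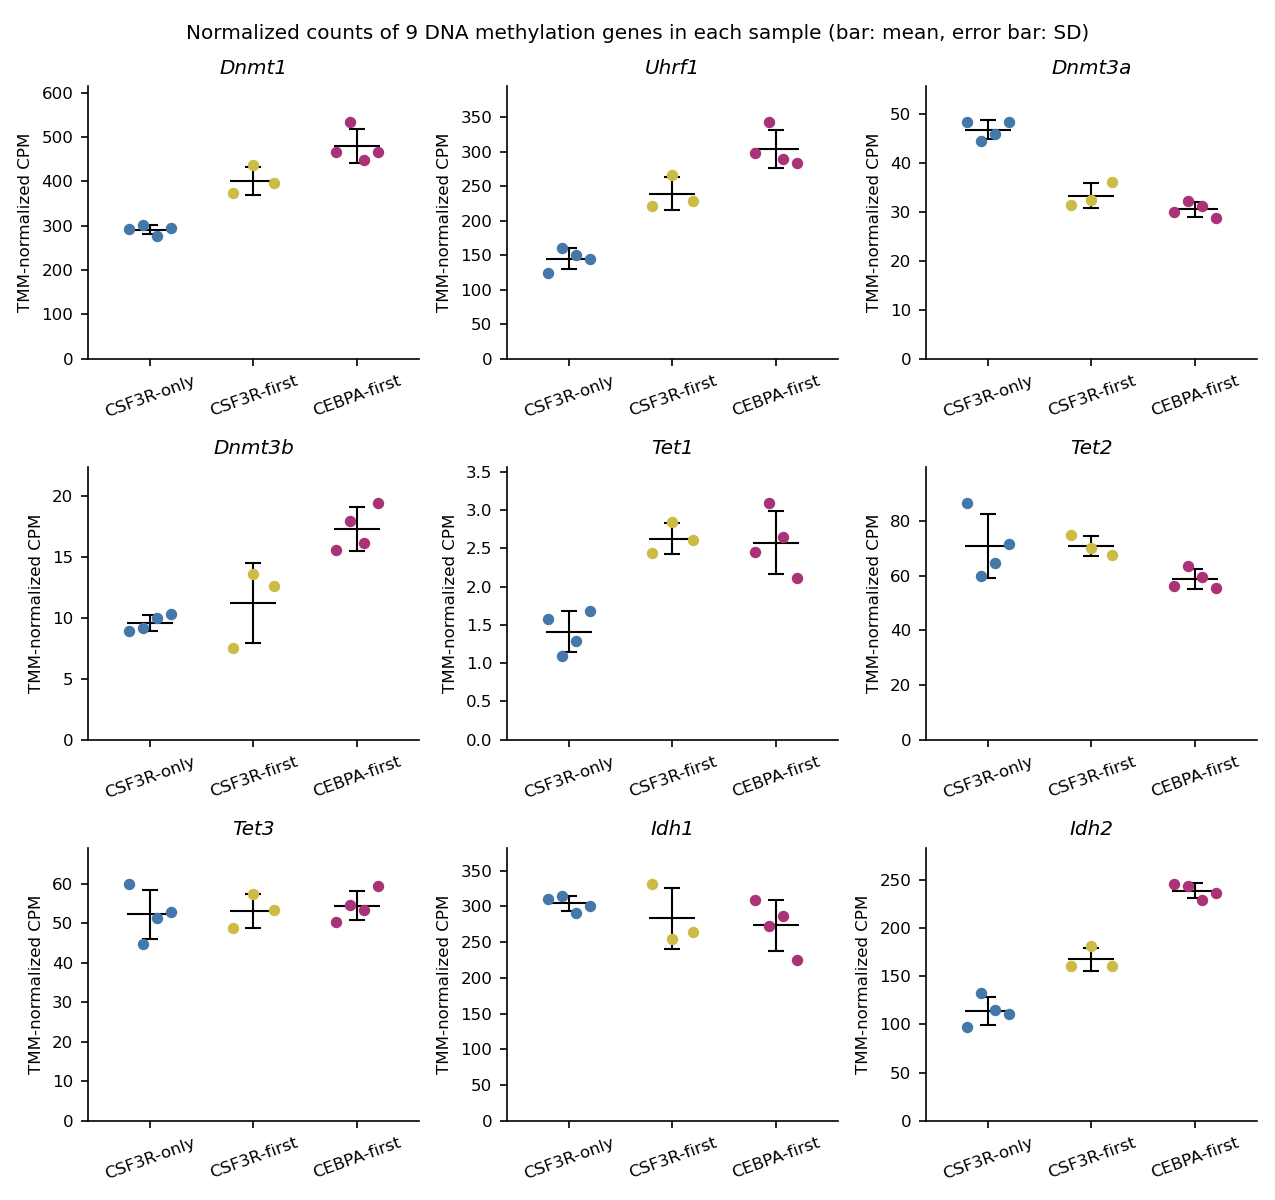
Normalized counts (TMM CPM, vertical axis from 0) of the 9 genes in each of 11 samples by group, with the mean (bar) and SD (error bar). Dnmt1, Uhrf1 and Idh2 step up across the groups as ordered on the axis without overlap, whereas Dnmt3a is lower in both 2-oncogene groups and Tet3 and Idh1 overlap throughout.

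The de novo methyltransferases moved in opposite directions in CEBPA-first. Dnmt3a (ENSMUSG00000020661, chr12:3806007-3914443, plus strand, 32 exon blocks) was at 48.4, 44.5, 45.9 and 48.3 CPM in CSF3R-only. It was at 31.3, 32.3 and 36.1 CPM in CSF3R-first and at 30.0, 32.1, 31.1 and 28.7 CPM in CEBPA-first. Every sample with both oncogenes lay below every CSF3R-only sample. Dnmt3a fell by 0.62 on the log2 scale in CEBPA-first (SE 0.06, edgeR adjusted p = 1.7e-06) and by 0.49 in CSF3R-first (SE 0.07, edgeR adjusted p = 0.00022). CEBPA-first and CSF3R-first overlapped (log2 fold change -0.13, SE 0.07, edgeR adjusted p = 0.15). An antisense gene, Dnmt3aos, overlaps 0.8% of its exon bases.

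Dnmt3b (ENSMUSG00000027478, chr2:153649450-153687730, plus strand, 24 exon blocks) was at 8.92, 9.17, 9.98 and 10.3 CPM in CSF3R-only and at 15.6, 18.0, 16.2 and 19.5 CPM in CEBPA-first. CSF3R-first replicate A, at 7.53 CPM, lay below all CSF3R-only samples, while B (13.6 CPM) and C (12.6 CPM) lay between the other two groups. Dnmt3b rose 1.81-fold in CEBPA-first against CSF3R-only (log2 0.85, SE 0.15, edgeR adjusted p = 0.00021) and was 1.54-fold higher than in CSF3R-first (0.62, SE 0.16, edgeR adjusted p = 0.0078), or by 0.41 on the log2 scale without CSF3R-first replicate A (adjusted p = 0.0093). The difference between CSF3R-first and CSF3R-only was 0.23 (SE 0.16, edgeR adjusted p = 0.28) and became 0.45 (adjusted p = 0.0032) without replicate A. Per kilobase of exon, Dnmt3a (2.81 ± 0.115 CPM per kb, SD, n = 4) was above Dnmt3b (1.88 ± 0.129) in CSF3R-only, and the order was the opposite in CEBPA-first (1.83 ± 0.0862 and 3.39 ± 0.351, n = 4). Length was that of all annotated exons of a gene together, 16642 bases for Dnmt3a and 5106 for Dnmt3b. Without division by length Dnmt3a stayed above Dnmt3b in CEBPA-first (30.5 ± 1.44 and 17.3 ± 1.79 CPM), so the opposite order rests on that division.

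Of the TET dioxygenases, only Tet1 was called in both comparisons with CSF3R-only. Tet1 (ENSMUSG00000047146, chr10:62804570-62908996, minus strand, 18 exon blocks) was the least abundant of the 9 genes, with 55 to 182 counts per library. The 4 CSF3R-only samples were at 1.58, 1.10, 1.29 and 1.68 CPM. CSF3R-first samples were at 2.44, 2.84 and 2.61 CPM, and CEBPA-first samples at 2.45, 3.10, 2.65 and 2.11 CPM. Both 2-oncogene groups lay above CSF3R-only and overlapped each other. It rose 1.82-fold in CEBPA-first (log2 0.86, SE 0.17, edgeR adjusted p = 0.00047) and 1.86-fold in CSF3R-first (0.89, SE 0.18, edgeR adjusted p = 0.0021). The difference between the orders was -0.03 (SE 0.18, edgeR adjusted p = 0.91).

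Tet2 (ENSMUSG00000040943, chr3:133463679-133545139, minus strand, 14 exon blocks) was at 86.8, 60.0, 64.8 and 71.8 CPM in replicates A to D of CSF3R-only. CSF3R-first samples lay at 74.8, 70.3 and 67.6 CPM, and CEBPA-first samples at 56.4, 63.5, 59.4 and 55.4 CPM. CEBPA-first overlapped CSF3R-only but not CSF3R-first. It fell by 0.27 in CEBPA-first against CSF3R-only (SE 0.10, edgeR adjusted p = 0.023) and by 0.27 against CSF3R-first (SE 0.11, edgeR adjusted p = 0.047). The first call was lost without CSF3R-only replicate A (-0.16, adjusted p = 0.07), CEBPA-first replicate A (-0.25, adjusted p = 0.059) or D (-0.24, adjusted p = 0.06), or with no filter on low counts (-0.20, adjusted p = 0.078). The second was lost with DESeq2 (-0.26, adjusted p = 0.056), with no filter on low counts (-0.25, adjusted p = 0.055) and with the replicate block (-0.26, adjusted p = 0.056). It was also lost without any one of 8 samples, at adjusted p up to 0.14 (-0.23, without CSF3R-first replicate A). Between CSF3R-first and CSF3R-only no difference was detectable (log2 fold change 0.00076, SE 0.11, edgeR adjusted p = 1.0).

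Tet3 (ENSMUSG00000034832, chr6:83362373-83459084, minus strand, 14 exon blocks) was at 52.2 ± 6.25 (n = 4), 53.1 ± 4.22 (n = 3) and 54.4 ± 3.70 CPM (SD, n = 4) from CSF3R-only, then CSF3R-first, to CEBPA-first. Its samples overlapped in all 3 comparisons, with log2 fold changes of 0.06, 0.03 and 0.04 and edgeR adjusted p of 0.54, 0.85 and 0.78 for CEBPA-first and CSF3R-first against CSF3R-only and for CEBPA-first against CSF3R-first. In every group Tet2 and Tet3 were above Tet1 per kilobase of exon, at 3.13 to 4.20 against 0.0913 to 0.170 CPM per kb.

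The isocitrate dehydrogenases differed from each other. Mitochondrial Idh2 (ENSMUSG00000030541, chr7:80094846-80115392, minus strand, 9 exon blocks) was at 97.4, 132, 115 and 111 CPM in CSF3R-only. It was at 160, 181 and 161 CPM in CSF3R-first and at 246, 244, 229 and 236 CPM in CEBPA-first. The groups were separate and stepped upward in that order. Idh2 rose 2.10-fold in CEBPA-first (log2 1.07, SE 0.08, edgeR adjusted p = 1.7e-07) and 1.47-fold in CSF3R-first (0.56, SE 0.09, edgeR adjusted p = 0.0005) against CSF3R-only. CEBPA-first was 1.43-fold above CSF3R-first (0.51, SE 0.09, edgeR adjusted p = 0.00066).

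Cytosolic Idh1 (ENSMUSG00000025950, chr1:65158616-65186500, minus strand, 13 exon blocks) was at 304 ± 10.4, 283 ± 42.2 and 273 ± 35.7 CPM (SD) in the groups in the same order. The 3 groups overlapped, and the log2 fold changes against CSF3R-only were -0.15 (SE 0.10, edgeR adjusted p = 0.19) in CEBPA-first and -0.10 (SE 0.11, edgeR adjusted p = 0.48) in CSF3R-first, or -0.23 (adjusted p = 0.081) there without CSF3R-first replicate A. Per kilobase of exon Idh1 was 110 ± 3.76 and Idh2 44.0 ± 5.52 CPM per kb in CSF3R-only. In CEBPA-first they were 98.6 ± 12.9 and 92.3 ± 2.90 CPM per kb, a difference smaller than the SD of Idh1. These lengths were 2771 and 2588 bases over all exons, against 2302 and 1790 in the longest transcripts. The order of Idh1 and Idh2 in CEBPA-first therefore depends on the length used.

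**Figure D2:**
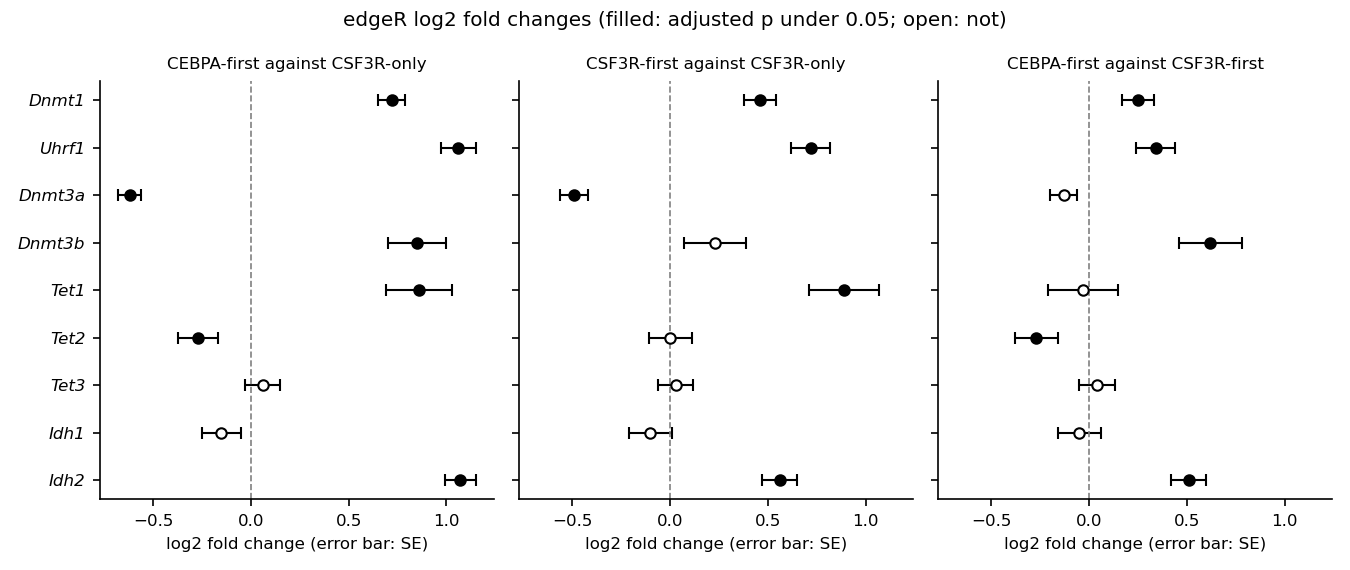
edgeR log2 fold changes (horizontal axis) with their SE for the 9 genes in the 3 comparisons, filled where adjusted p was under the 0.05 threshold. Idh2 (1.07) and Uhrf1 (1.06) are farthest right and Dnmt3a (-0.62) farthest left in CEBPA-first against CSF3R-only.

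Counted together, 7 of 9 genes were called in CEBPA-first against CSF3R-only (5 higher, 2 lower), where 72.0% of all tested genes were called at adjusted p under 0.05 (35.4% higher, 36.6% lower), and in 6 of the 9 the groups did not overlap, as in 68.7% of all tested genes. Of the 9, 2 (Idh2 and Uhrf1) also passed a 2-fold change, against 27.0% of all genes, and neither did without CSF3R-only replicate A. In CSF3R-first against CSF3R-only 5 of 9 were called (4 higher, 1 lower, 0 with a 2-fold change), where 42.7% of all genes were called, 21.6% higher, 21.1% lower and 6.65% with a 2-fold change, and in CEBPA-first against CSF3R-first 5 of 9 (4 higher, 1 lower, 0 with a 2-fold change), where 48.3% of all genes were called, 24.0% higher, 24.3% lower and 12.8% with a 2-fold change. The latter count was 3 without CSF3R-first replicate A and 2 without replicate C. Groups did not overlap in 5 of the 9 in each of these comparisons, as in 42.1% and 52.2% of all tested genes. Nothing about the 9 genes as a set is read from these counts. Their median log2 fold changes were 0.72, 0.23 and 0.04, against -0.00446, -0.0218 and 0.000524 over all tested genes. The comparisons share samples, so their values are given side by side only.

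On a scale from 0 at the CSF3R-only mean log2 CPM to 1 at the CEBPA-first mean, CSF3R-first lay at 0.644 for Dnmt1, 0.676 for Uhrf1 and 0.522 for Idh2. Dnmt3a (0.801) and Tet1 (1.04) were nearer CEBPA-first. Dnmt3b lay at 0.22, with its single samples at -0.408, 0.598 and 0.471, and Tet2 at -0.0523.

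Ratios of 2 genes within a library do not depend on its scaling. Dnmt3b to Dnmt3a lay between 0.184 and 0.217 in CSF3R-only, between 0.241 and 0.422 in CSF3R-first and between 0.519 and 0.680 in CEBPA-first, a difference of 1.47 on the log2 scale between the outer groups. Idh2 to Idh1 was 0.314 to 0.419, 0.482 to 0.713 and 0.795 to 1.05 in the same order (1.24). Both ratios separated all 3 groups. Tet1 to Tet2 was 0.0183 to 0.0235 in CSF3R-only and 0.0382 to 0.0490 in CEBPA-first (1.13), and Tet3 to Tet2 0.691 to 0.790 and 0.861 to 1.07 (0.33). Uhrf1 to Dnmt1 was 0.423 to 0.544 and 0.608 to 0.646 (0.35). Idh2 to Idh3a, a subunit of the NAD-dependent mitochondrial enzyme, was 0.552 to 0.623 and 0.757 to 0.835 (0.41).

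Of 24 ratio tests, 14 had the smallest two-sided exact permutation p the samples allow, 0.0286, which adjusted over the 24 gives 0.049. That p counts relabelings with an absolute difference at least as large. Under the other usual definition, doubling the smaller tail, the smallest p for 4 samples against 3 is 0.0571, the smallest adjusted p is 0.0807 and 0 of the 24 pass, so every call on a ratio rests on the definition used.

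**Figure D3:**
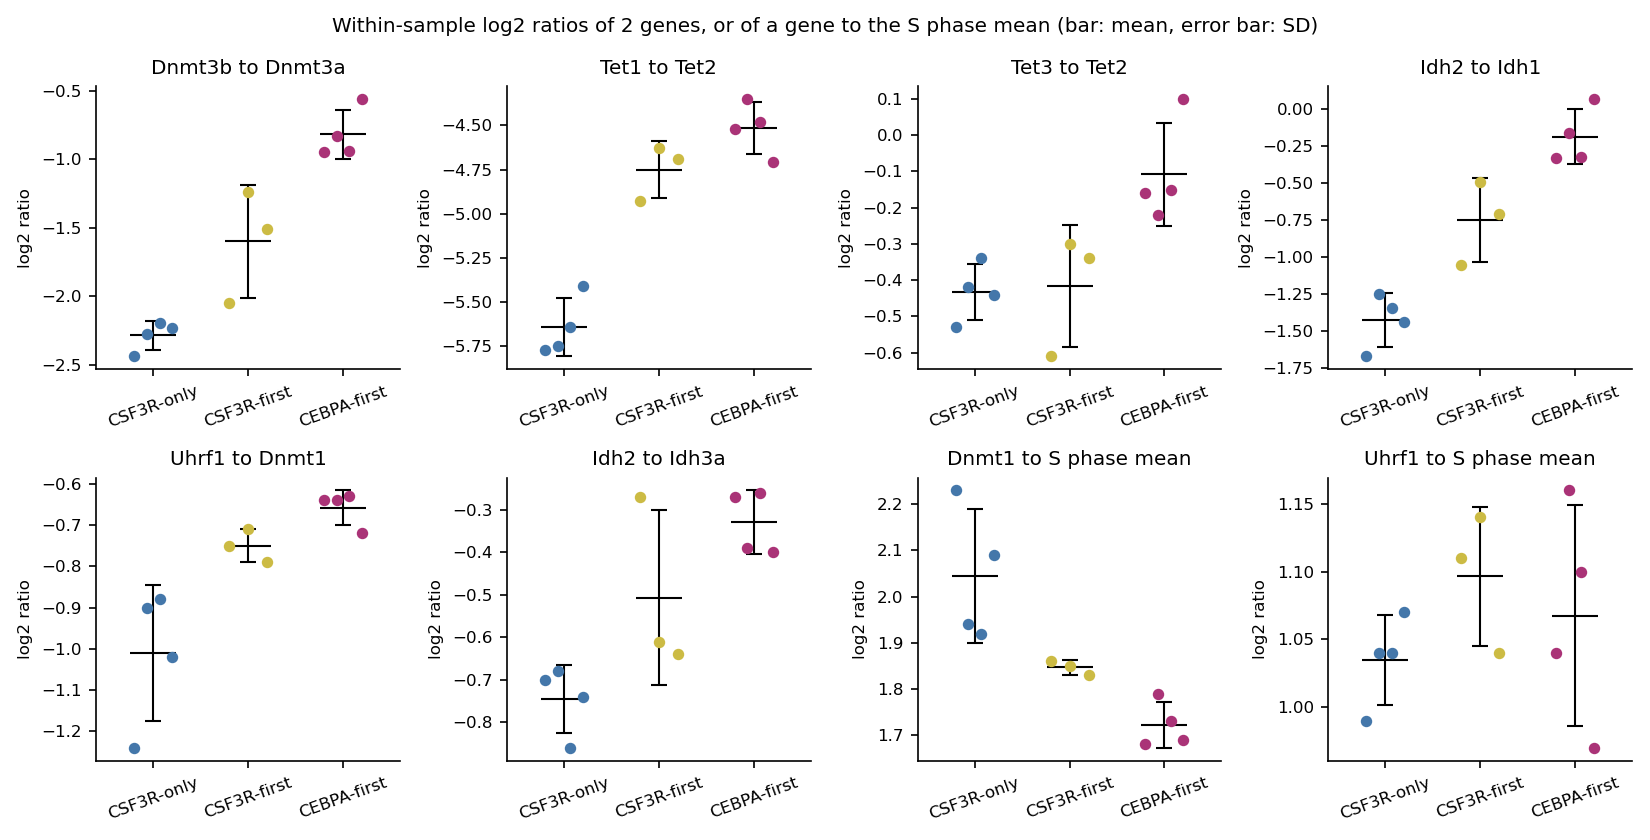
The 8 within-sample log2 ratios (vertical axis, scaled per panel), of gene pairs or of a gene to the S phase mean, by group, with the mean (bar) and SD (error bar) over samples. The Dnmt3b to Dnmt3a and Idh2 to Idh1 ratios separate the 3 groups, whereas Uhrf1 to the S phase mean overlaps in all of them.

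Genes of the cell cycle and of myeloid maturation also differed between the groups. All 20 S phase genes listed (such as Ung, 1.52, and Dtl, 1.34) were higher in CEBPA-first when set against CSF3R-only, with a median log2 fold change of 1.02, and all 20 were higher in CSF3R-first (0.63). Their summed level was 2350 to 2970, 3760 to 4460 and 4980 to 5780 CPM in the 3 groups. All 12 mitosis genes were higher in CEBPA-first (median 0.72), where 35.4% of all tested genes were higher and 36.6% lower. Uhrf1 stayed at 2.05 ± 0.0444, 2.14 ± 0.0747 and 2.09 ± 0.113 times the geometric mean of the S phase genes (SD), with overlap in every comparison. Dnmt1 was 3.78 to 4.70 times that mean in CSF3R-only and 3.20 to 3.46 times in CEBPA-first (-0.32 on the log2 scale, exact permutation p = 0.0286, one of the 14). Neutrophil maturation genes were lower in CEBPA-first in 14 of 14 cases (median -3.29), including Fpr1 (-6.47) and Ltf (-5.65), and summed to 27800 to 34400, 15000 to 26200 and 6560 to 8730 CPM. The part of these shifts in the results for the 9 genes was not tested. In bulk RNA, fewer cells of a type and less RNA per cell cannot be told apart.

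Partners of the methyltransferases rose in 10 and fell in 2 of 14 tested cases in CEBPA-first against CSF3R-only. Over all tested genes 35.4% were higher and 36.6% lower, which applies also to the lists of the next paragraph. Hells, a chromatin remodeler needed for methylation, was at 61.6 ± 3.43, 109 ± 21.4 and 158 ± 14.6 CPM (log2 fold change 1.36, SE 0.11, edgeR adjusted p = 1.9e-07). Cdca7, which works with HELLS, rose by 1.18. Dnmt3l, a catalytically inactive cofactor of DNMT3A, fell by 0.42 (SE 0.11, edgeR adjusted p = 0.0041), and Kat5 fell by 0.15. Zfp57 was also called, from 0.0234 to 0.335 CPM in the mean of the outer groups, where a count of 0 allows up to 0.0475 to 0.0648 CPM in CSF3R-only, so no fold is given. Uhrf2, the paralog of Uhrf1, had a log2 fold change of -0.03 (adjusted p = 0.54).

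Of 8 genes listed with the readers of methylated CpG, 2 rose and 3 fell. Not every listed protein need bind methylated CpG, and binding was not measured. The 2 were Mbd3 and Zfp57, which is counted in both lists and had the low counts given above. Mbd3, of the NuRD complex, rose by 0.93, whereas Mbd2 fell by 0.57 (238 ± 8.76 to 160 ± 5.67 CPM) and Zbtb4 by 1.68. Among 14 tested genes of demethylation and base excision repair, 8 rose and 3 fell. Apex1, the abasic site endonuclease (8.63 ± 1.38 to 21.1 ± 2.18 CPM, log2 1.29), and Parp1 (0.92) rose most, and Tdg, the glycosylase that removes oxidized methylcytosine, rose by 0.73. The 3 that fell were the stress genes Gadd45g (-1.47), Gadd45a (-1.29) and Gadd45b (-0.72). Of 5 tested TET partners, Dcaf1 (1.17), Prmt1 (1.14) and Sin3a (0.32) rose and Ogt, the O-GlcNAc transferase bound by TET proteins, fell by 0.75.

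Genes that supply the reactions were counted in the same way, where 35.4% of all tested genes were higher and 36.6% lower. In the S-adenosylmethionine cycle, which provides the methyl donor, 6 of 11 tested genes rose in CEBPA-first against CSF3R-only by edgeR and the other 5 did not pass the test (median log2 fold change 0.45). Mtrr (1.04) and Ahcy, which clears S-adenosylhomocysteine (0.97), rose most. Of 19 genes of 2-oxoglutarate and 2-hydroxyglutarate, 14 rose and 1 fell (median 0.38). Fh1, fumarate hydratase, rose by 1.24. Adhfe1, a hydroxyacid-oxoacid transhydrogenase, fell by 3.01, from 5.07 ± 0.666 through 2.69 ± 0.711 to 0.645 ± 0.295 CPM. D2hgdh, which oxidizes D-2-hydroxyglutarate, was at 13.0 ± 0.656, 11.7 ± 0.899 and 13.3 ± 0.885 CPM (adjusted p = 0.74).

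**Figure D4:**
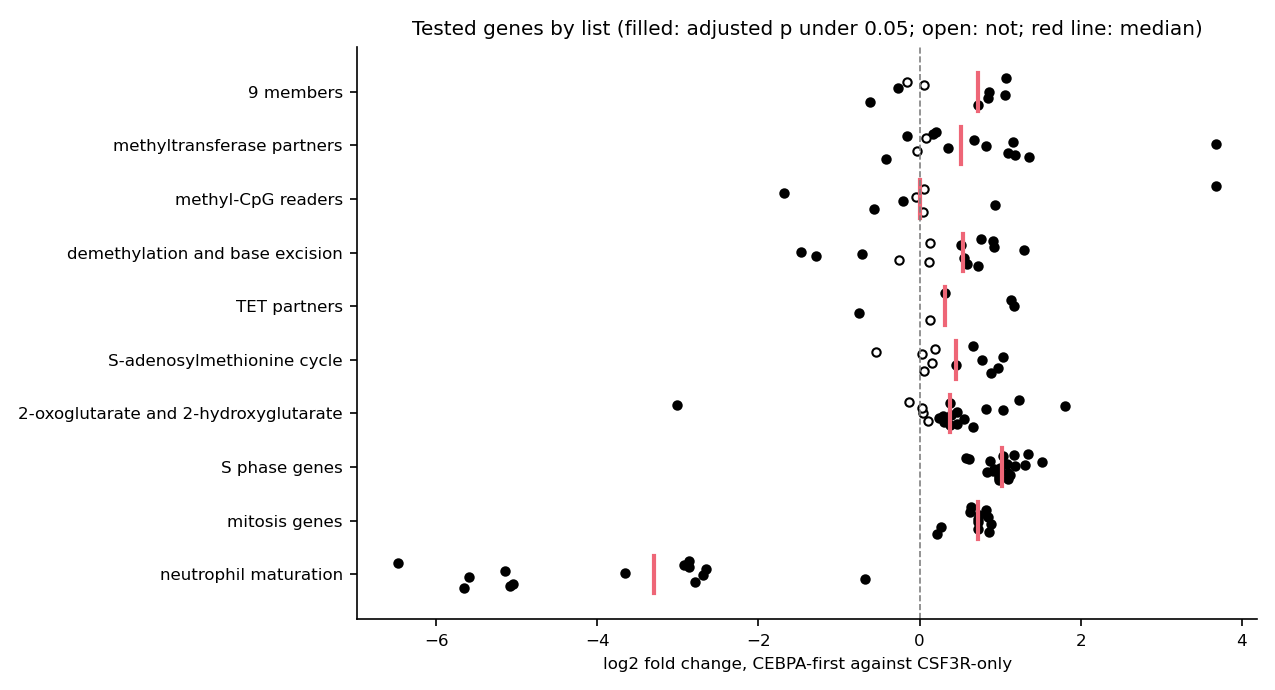
Log2 fold changes in CEBPA-first against CSF3R-only (horizontal axis) of the 9 genes and of tested genes in related lists, filled where adjusted p was under the 0.05 threshold, with the median of each list as a red line. The S phase genes (median 1.02) lie to the right of zero and the neutrophil maturation genes (median -3.29) to the left.

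For the 3 of the 9 with the largest absolute log2 fold changes, the nearest patterns over the 11 samples, among genes with a mean log2 CPM of at least 3, were described by the root mean square difference of centred log2 CPM. Idh2 was nearest Cdt1 (0.04), Rbbp7 (0.044) and Fkbp3 (0.049). Uhrf1 was nearest Fignl1 (0.052), Nek2 (0.054) and Haus6 (0.06). Tet1 was less close to its nearest genes, Extl3 (0.154), Adpgk (0.17) and D430020J02Rik (0.175). Tet1 held only 55 to 182 counts per library, and the limit on mean log2 CPM left out genes of its own level. The part of depth in its larger distances was not tested. With the largest single difference as the measure, 4 of these 9 stayed.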

How the data were processed

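The authors deposited raw counts per gene, from reads trimmed by Trimmomatic and aligned by STAR, of SMARTer low-input RNA libraries. The submitters' processing notes name mm10 and DESeq2, while the counting tool, annotation and strand setting are not given in the sources used here. Positions are from GENCODE M21 (GRCm38), matched by Ensembl identifier.

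Counts were TMM-normalized, filtered with filterByExpr (15703 genes) and tested with the quasi-likelihood test of edgeR 4.0.16 (R 4.3.3) in one fit of 3 groups, with Benjamini-Hochberg adjustment over all tested genes. Called means adjusted p under 0.05, and SE is the log2 fold change over the square root of F. Replicate letters were not used as pairs. Ratios used counts plus 0.5 and a two-sided exact permutation test. Its p was first computed by doubling the smaller tail and changed, after those values had been seen, to counting absolute differences, which has the smallest p written in the design (0.0286 for 4 against 3). Both are reported. A count of 0 allows up to 3 counts (0.0383 to 0.0648 CPM), for counting error only. Near-identical transcripts were searched with BLAST 2.17.0.

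The members and lists were chosen with earlier results of these data known. Named genes are the 9 members, up to 2 that rose and 2 that fell most in each other list, defining cell type genes, and the 3 nearest patterns of 3 members. A gene that this rule selects is not reported here. Cdca7, Tdg, Gadd45b, Sin3a, Uhrf2, D2hgdh and Zfp57 are named outside that rule or in spite of low counts, after their values were seen. Alternatives were DESeq2 1.42.0, other normalizations and filters, only the compared groups, a replicate block, a threshold on the fold change, other pseudocounts and each sample left out. A simulation of CEBPA-first against CSF3R-only changed 200 of 15703 genes. There edgeR recovered 100 of 100 genes changed 2-fold and 64 of 100 changed 1.5-fold, with 4 false calls. The changed genes were few, well counted and random in direction, with the same spread set for every gene. In the data 72.0% of tested genes were called, so these rates do not carry over to the real comparison.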

Additional observations from a re-analysis of the deposited data

Results flagged for a closer look

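One value stood apart in its group: the log2 ratio of Uhrf1 to Dnmt1 in CEBPA-first replicate D was -0.718, below the other three replicates by 0.899 of the group's range, past Dixon's 95% critical value for 4 samples. It was 1 of 34 groups of 4 checked, where chance gives about 1.7.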

How the results depend on the processing

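The calls of Dnmt1, Uhrf1, Dnmt3a, Dnmt3b, Tet1 and Idh2 in CEBPA-first against CSF3R-only held under every alternative run, the fold threshold included. Members called ranged from 6 to 7 there when each sample was left out, from 5 to 6 in CSF3R-first against CSF3R-only and from 2 to 5 in CEBPA-first against CSF3R-first, and those with a 2-fold change from 0 to 2 in the first. Tested against a log2 fold change of 0.5, 0 members were called in either comparison with CSF3R-first, and all genes called were 6225, 785 and 1883, with 609 of them 2-fold in CSF3R-first against CSF3R-only. With at least 10 counts in every sample, 566 and 1219 genes were called at 2-fold in the comparisons with CSF3R-first. With the exact p by doubling the smaller tail, an alternative added after seeing the data because it was the definition run first, 0 ratios were called in each comparison, against 7, 4 and 3. The other measure of likeness kept 4 neighbours. Between CEBPA-first and CSF3R-first, the Dnmt1 call was lost with only the compared groups in the fit (0.22, adjusted p = 0.052). Reversed values were of uncalled differences. In CSF3R-first against CSF3R-only Tet2 was -0.01 with at least 10 counts, -0.0032 with the replicate block and -0.07 to 0.11 with a sample left out (-0.07, -0.04 and -0.04 where reversed), and Tet3 -0.04 to 0.10 (-0.04 and -0.03 where reversed). With a sample left out, Tet3 was -0.009 to 0.13 in CEBPA-first against CSF3R-only. Between the orders Tet3 was -0.02 to 0.10 (-0.0079 and -0.02 where reversed), Tet1 -0.13 to 0.06 (0.06 and 0.03) and Idh1 -0.12 to 0.08 (0.03 and 0.08). The cause was not tested. Letters shared between groups were not used as pairs, since not every same-letter correlation of deviations passed 0.1 (-0.107 to 0.362 over 10 pairs, 9 above 0 and 7 above 0.1, with 6 of 11 samples best correlated with their own letter), and whether a letter marks a shared batch is not given in the sources used here. With the replicate block one member call changed, Tet2 between the orders (-0.26, adjusted p = 0.056). Tet1 had the lowest depth of the 9, at 55 to 182 counts, and the effect of depth was not tested.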

Other observations

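Stem and progenitor genes had no common direction: of 8 tested, 4 were higher and 4 lower in CEBPA-first against CSF3R-only. Over all tested genes 35.4% were higher and 36.6% lower there, which applies to every list below. Mecom, a stem cell transcription factor, rose from 0.17 ± 0.0361 through 3.38 ± 1.04 to 15.4 ± 1.86 CPM (edgeR adjusted p = 3.9e-10 for the outer groups), and Ly6a fell from 402 ± 91.5 to 63.2 ± 11.7 CPM. Megakaryocyte genes were lower in 6 of 6 cases (median -4.82), erythroid genes in 6 of 8 with 1 higher (median -2.74) and monocyte and macrophage genes in 7 of 10 with 2 higher (median -1.87). Mast cell and basophil genes were lower in 3 and higher in 1 of 6, leukocyte genes lower in 3 and higher in 1 of 4, and of the lymphoid lists 2 B cell and 4 T and NK cell genes passed the filter on low counts, with 1 and 2 higher and 1 and 2 lower.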
